A study of Homo sapiens with 9 samples.

Results

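Expression of 8 enzymes of the pentose phosphate pathway and of its exit to nucleotide synthesis (PGLS, PGD, RPIA, RPE, TKT, TALDO1, PRPS1 and PRPS2) was described in H69 cells treated with either of 2 inhibitors of phosphoinositide 3-kinase (PI3K). The members were all probe sets that the platform annotation assigns to exactly 1 of these gene symbols, which gave 20 of the 54613 probe sets and 8 of the 19775 genes measured. One further probe set, assigned to both RPE and its near-identical copy RPEL1, was left out by this rule. H69 is an established human small cell lung cancer line, so each value describes 1 line in culture. For 24 h, in RPMI medium with fetal calf serum, the cultures received DMSO only (control), PIK75 (100 nM) or TGX221 (labelled 1 mM). PIK75 is known for its preference for the PI3K isoform encoded by PIK3CA and TGX221 for that encoded by PIK3CB. Whether 1 mM is the true TGX221 dose cannot be told from the files, and the treatment field of the control arrays reads none where the protocol gives DMSO. Each group holds 3 Affymetrix arrays, numbered 1, 3 and 5 for control and PIK75 and 2, 3 and 5 for TGX221. Nothing in the labels says whether they came from separate cultures, so p-values here reflect array-to-array spread only, which could be technical.

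The pentose phosphate pathway branches from glycolysis at glucose 6-phosphate. Its oxidative arm, which includes PGLS and PGD, yields NADPH for biosynthesis and for defence against oxidants, and ends in ribulose 5-phosphate. The non-oxidative arm interconverts pentose, triose and hexose phosphates through RPIA, RPE, TKT and TALDO1. PRPS1 and PRPS2 turn ribose 5-phosphate into phosphoribosyl pyrophosphate (PRPP), the ribose donor for purine, pyrimidine and pyridine nucleotides. PI3K signalling is known to promote this supply of ribose in proliferating cells.

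The promoters of 4 members are given because they cover both directions of change with PIK75: PGD and PRPS1 had the 2 largest falls among the member probe sets, RPE fell on 3 probe sets, and TALDO1 rose on the deposited scaling. Each is the 250 bases before the gene's start in RefSeq on GRCh38.p14, read 5′ to 3′ on the plus strand. The windows are chr1:10398814-10399063 for PGD, chr2:210002388-210002637 for RPE, chr11:747214-747463 for TALDO1 and chrX:107628260-107628509 for PRPS1. Capitals mark matches, on either strand, to TGACNNNGC (the antioxidant response element bound by NRF2) or to ACGTG (the core of the hypoxia response element).
PGD: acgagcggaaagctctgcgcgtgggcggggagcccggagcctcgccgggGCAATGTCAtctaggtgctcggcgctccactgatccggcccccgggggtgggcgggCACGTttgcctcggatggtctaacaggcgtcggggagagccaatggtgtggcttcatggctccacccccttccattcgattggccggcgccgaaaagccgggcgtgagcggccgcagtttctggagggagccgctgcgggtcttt
RPE: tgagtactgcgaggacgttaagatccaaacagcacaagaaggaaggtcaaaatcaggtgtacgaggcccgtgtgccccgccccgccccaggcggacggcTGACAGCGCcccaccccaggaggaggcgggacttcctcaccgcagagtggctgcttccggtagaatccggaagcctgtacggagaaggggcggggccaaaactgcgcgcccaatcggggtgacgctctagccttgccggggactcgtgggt
TALDO1: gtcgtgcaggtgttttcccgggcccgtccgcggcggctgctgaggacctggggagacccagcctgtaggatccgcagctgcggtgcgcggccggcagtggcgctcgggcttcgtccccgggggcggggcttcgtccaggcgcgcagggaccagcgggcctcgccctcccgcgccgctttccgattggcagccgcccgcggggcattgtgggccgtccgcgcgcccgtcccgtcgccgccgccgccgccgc
PRPS1: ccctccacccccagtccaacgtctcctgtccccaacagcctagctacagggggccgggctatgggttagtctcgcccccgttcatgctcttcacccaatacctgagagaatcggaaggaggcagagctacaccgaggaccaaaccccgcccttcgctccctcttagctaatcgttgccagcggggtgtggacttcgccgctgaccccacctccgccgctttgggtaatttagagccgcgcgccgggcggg

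All 8 members matched a RefSeq promoter, and the same windows were searched in each. PGD held 1 match to TGACNNNGC and 1 to ACGTG, both on the minus strand and so printed as their reverse complements. RPE held 1 match to TGACNNNGC on the plus strand. The windows of the other 6 genes, TALDO1 and PRPS1 among them, held neither motif, and none of the 8 held CACGTG, the E-box that MYC binds and which contains ACGTG. Among 27303 promoter windows of the same length, 11% held TGACNNNGC, 18.7% held ACGTG and 6.49% held CACGTG. These matches describe letters in a window and do not show binding. GC content was 68.4% for PGD, 64.4% for RPE, 63.6% for PRPS1 and 78.4% for TALDO1.

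Values are deposited RMA values on a log2 scale, in which 1 unit is a doubling of signal. RMA gives all arrays a like distribution, so a change shared by most genes cannot be measured, and in bulk RNA fewer expressing cells cannot be told apart from less RNA per cell. Array medians lay between 7.26 and 7.33. The interquartile range of all probe sets was narrowest with PIK75 (2.54 to 2.58), beside 2.70 to 2.71 in control and 2.67 to 2.69 with TGX221. Hybridization spikes read 0.35 higher with PIK75 than in control. Poly-A spikes overlapped, at 7.99 to 8.16 with PIK75, 7.98 to 8.05 in control and 7.86 to 8.01 with TGX221. The 3′ minus 5′ signal of actin, a sign of RNA length, was 0.47 to 1.13 on the PIK75 arrays with its highest value on PIK75 array 5, against 0.24 to 0.44 in control and 0.26 to 0.41 with TGX221. The same measure for GAPDH differed less and overlapped: -0.0021 to 0.078 with PIK75, -0.052 to 0.013 in control and 0.0027 to 0.018 with TGX221. All 9 measured of 10 neuroendocrine markers lay above the median gene in every group, and their summed signal was 15.26 to 15.30 in control, 14.90 to 14.94 with PIK75 and 15.28 to 15.33 with TGX221. Of leukocyte markers 3 of 5 were measured and 0 lay above the median gene, and for fibroblast, endothelial and other epithelial markers it was 1 of 5, 1 of 4 and 1 of 5 (COL1A1, PECAM1 and SFTPC). The summed signal of these 4 lists was higher with PIK75 than in control, without overlap: 8.36 to 8.59 against 8.19 to 8.34 for leukocyte, 10.63 to 10.69 against 10.35 to 10.40 for fibroblast, 9.74 to 9.82 against 9.54 to 9.58 for endothelial and 10.07 to 10.16 against 9.83 to 9.97 for other epithelial markers. With TGX221 these sums were 8.27 to 8.36, 10.38 to 10.48, 9.46 to 9.52 and 9.80 to 9.90. Results below were also rescaled on the spikes and fitted with the actin value as a covariate. Every PIK75 array lay above every control array in actin, so that fit cannot tell RNA length apart from PIK75. The part of the marker differences in the results below was not tested.

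With PIK75, more member probe sets fell than rose. Of the 20 probe sets, 10 were lower and 3 higher than in control at a Benjamini-Hochberg adjusted p below 0.05 in limma, and 7 did not pass. Over all probe sets tested, 19.9% were lower and 30.3% higher. The members are brighter than most, and among the brighter 27307 probe sets, which include 17 of the member probe sets and all 13 that passed, 33.1% were lower and 35.9% higher. On 11 member probe sets all PIK75 arrays lay below all control arrays and on 3 above, as did 21.4% and 36.2% of all probe sets. The median change of the member probe sets was -0.34, against 0.08 over all probe sets (-0.23 and 0.01 under cyclic loess). By gene, on the brightest probe set of each, PGLS, PGD, RPE, PRPS1 and PRPS2 fell, TALDO1 rose, and RPIA and TKT did not pass. Among all genes counted that way, 24.7% were lower and 33.3% higher. Rescaling on the hybridization spikes moved the median of all probe sets to -0.27 and left 17 member probe sets lower and 0 higher. Of all 54613 probe sets, 37576 were then lower and 847 higher. All 3 member rises lost their call, with PGD 1560942_at and TALDO1 turning negative and PGD 1560943_s_at at 0.03.

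**Figure D1:**
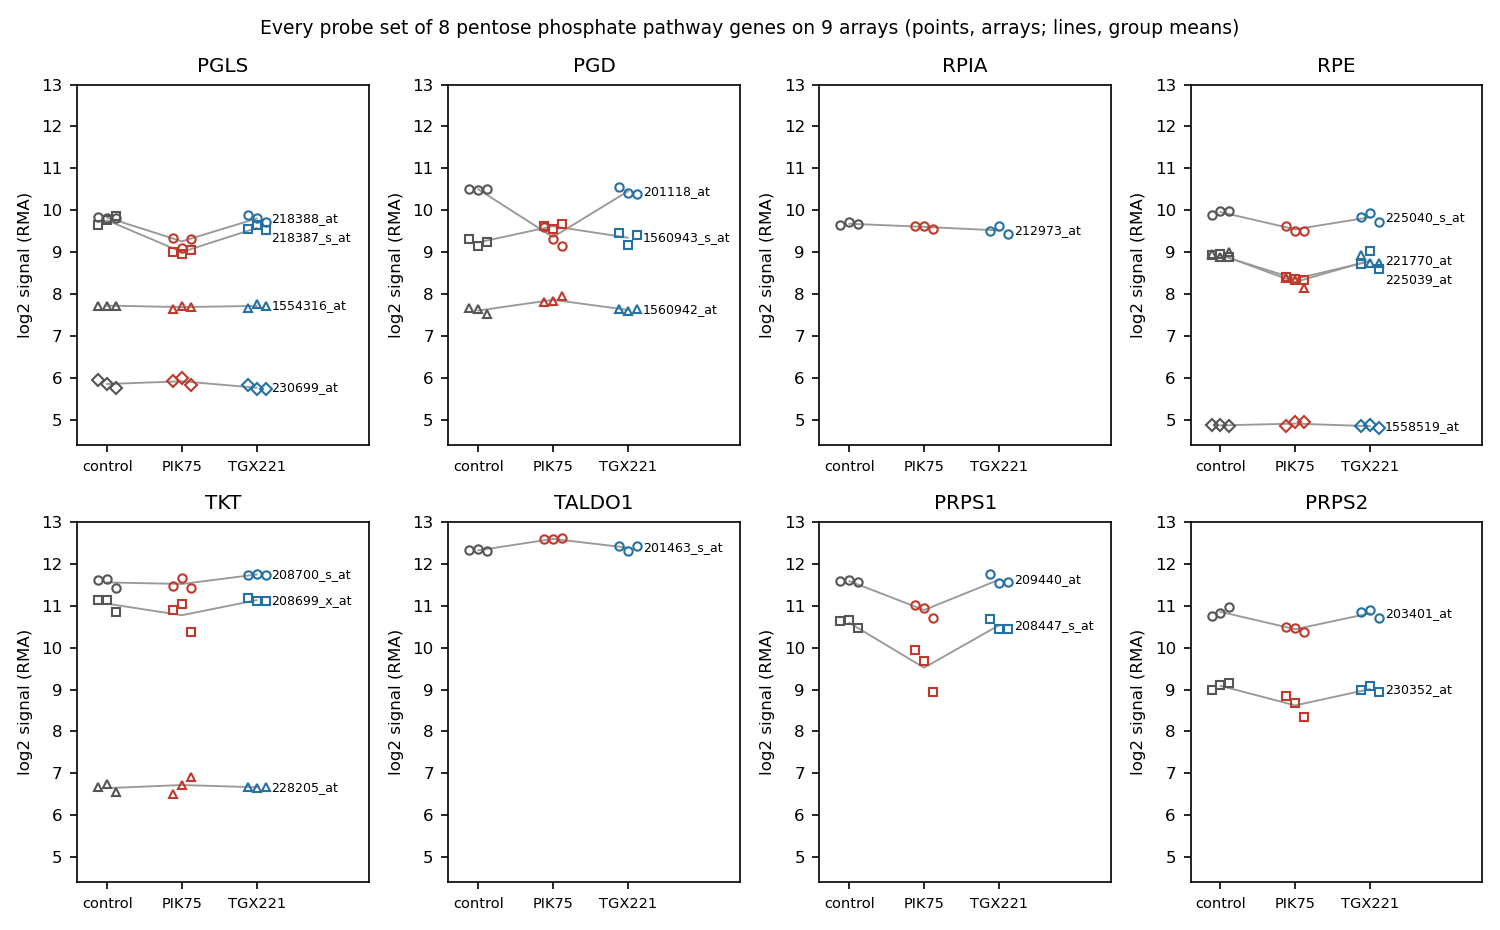
Log2 RMA value (y axis) of each of the 20 member probe sets on the 9 arrays, grouped as control, PIK75 and TGX221; points are single arrays and lines are group means. PGD 201118_at drops from 10.50 to 10.51 in control to 9.14 to 9.61 with PIK75, while the PIK75 and control points of TKT 208700_s_at overlap.

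In the oxidative arm, PGLS is the lactonase that opens 6-phosphogluconolactone. Its probe set 218388_at read 9.85, 9.81 and 9.82 in control, 9.35, 9.11 and 9.32 with PIK75, and 9.89, 9.81 and 9.72 with TGX221. All PIK75 arrays lay below all others, whereas the TGX221 arrays surrounded the control values. The fall with PIK75 was 1.48-fold (log2 change -0.57, SE 0.069, 95% interval -0.72 to -0.42, limma adjusted p = 3.74e-05). The second bright probe set, 218387_s_at, read 9.64, 9.78 and 9.86 in control 9.0, 8.96 and 9.06 with PIK75, and 9.56, 9.65 and 9.52 with TGX221. All PIK75 arrays were the lowest here too. It fell 1.69-fold (-0.75, SE 0.065, limma adjusted p = 2.12e-06), so both bright PGLS probe sets fell. The dimmer 1554316_at and 230699_at changed by -0.03 and 0.06 and did not pass (limma adjusted p = 0.566 and 0.425).

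PGD, the 6-phosphogluconate dehydrogenase that makes NADPH and ribulose 5-phosphate, had the largest fall of the members and also 2 of the 3 rises. Probe set 201118_at read 10.50, 10.50 and 10.51 in control, 9.61, 9.33 and 9.14 with PIK75, and 10.55, 10.41 and 10.38 with TGX221. All PIK75 arrays lay far below the control and TGX221 arrays, which overlapped. This was a 2.2-fold fall (-1.14, SE 0.0967, 95% interval -1.35 to -0.93, limma adjusted p = 1.86e-06), and 1.88% of all probe sets fell further. The arrays spread more with PIK75 (SD 0.236, n = 3) than in control (SD 0.0061, n = 3).

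The other PGD probe sets went the opposite way. Probe set 1560943_s_at read 9.31, 9.16 and 9.24 in control, 9.62, 9.56 and 9.68 with PIK75, and 9.45, 9.18 and 9.42 with TGX221. The PIK75 arrays were all above the others, a 1.31-fold rise over control (0.39, SE 0.0754, limma adjusted p = 0.00141). Probe set 1560942_at read 7.66, 7.64 and 7.53 in control, 7.80, 7.85 and 7.95 with PIK75, and 7.64, 7.60 and 7.64 with TGX221. Again only the PIK75 arrays stood above the control range, a 1.19-fold rise (0.26, SE 0.0572, limma adjusted p = 0.00327). Both are annotated with GenBank records other than RefSeq mRNAs, and 201118_at with a RefSeq mRNA. Why these probe sets moved apart was not tested. The gap between 201118_at and 1560943_s_at ranged from 1.19 to 1.34 in control and from 0.96 to 1.24 with TGX221. With PIK75 it ranged from -0.54 to -0.0024, a change of -1.53. This change of a gap within an array is the same under any shift of a whole array. The calls of the rises are not: centred on the hybridization spikes, 1560943_s_at changed by 0.03 (limma adjusted p = 0.744, range over the alternatives 0.00032 to 0.744) and 1560942_at by -0.10 (0.25, range 0.00245 to 0.25). The latter also lost its call on the poly-A spikes (0.18, limma adjusted p = 0.189) and under cyclic loess (0.12, limma adjusted p = 0.0804). Averaged over its 3 probe sets, PGD changed by -0.17 (limma adjusted p = 0.013).

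Of the 2 enzymes that act on ribulose 5-phosphate, the isomerase and the epimerase, 1 fell with PIK75. RPIA, the isomerase that makes ribose 5-phosphate, has 1 probe set, which read 9.64, 9.73 and 9.67 in control, 9.64, 9.64 and 9.54 with PIK75, and 9.50, 9.64 and 9.43 with TGX221. PIK75 and control values nearly touched, and the change of -0.08 (95% interval -0.21 to 0.06) did not pass (limma adjusted p = 0.324). RPE, the epimerase that makes xylulose 5-phosphate, fell on 3 of its 4 probe sets. Probe set 225040_s_at read 9.90, 9.98 and 9.99 in control, 9.63, 9.50 and 9.51 with PIK75, and 9.84, 9.95 and 9.72 with TGX221, a 1.33-fold fall with PIK75 (-0.41, SE 0.0663, limma adjusted p = 0.000362). The PIK75 arrays were the lowest of all 9. Probe set 225039_at read 8.94, 8.95 and 8.89 in control, 8.40, 8.35 and 8.34 with PIK75, and 8.72, 9.03 and 8.60 with TGX221, a 1.48-fold fall with PIK75 (-0.56, SE 0.0878, limma adjusted p = 0.000282). Probe set 221770_at read 8.95, 8.88 and 9.0 in control, 8.39, 8.34 and 8.14 with PIK75, and 8.94, 8.74 and 8.73 with TGX221, a 1.57-fold fall (-0.66, SE 0.0768, limma adjusted p = 2.81e-05). On both, the PIK75 arrays lay below all others. The fourth, 1558519_at, was dim, between 4.81 and 4.95 on all arrays, and did not pass (0.04, limma adjusted p = 0.494). Transcripts of RPEL1 may share signal with RPE probe sets.

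The 2 sugar transferases of the non-oxidative arm did not move as RPE did. TKT, the thiamine-dependent transketolase, did not pass on any of 3 probe sets. Its brightest, 208700_s_at, read 11.61, 11.63 and 11.42 in control, 11.47, 11.67 and 11.41 with PIK75, and 11.74, 11.76 and 11.74 with TGX221. PIK75 and control overlapped (-0.04, 95% interval -0.20 to 0.13, limma adjusted p = 0.69). Probe set 208699_x_at read 11.14, 11.15 and 10.85 in control, 10.90, 11.04 and 10.38 with PIK75, and 11.18, 11.10 and 11.11 with TGX221 (PIK75 change -0.28, SE 0.14, limma adjusted p = 0.119). Here array 5 was lowest in both groups. Without PIK75 array 5 the change was -0.08 (limma adjusted p = 0.502), without PIK75 array 3 it was -0.41 (0.0343), and with the actin value as a covariate it was 0.09 (0.444), within a range of p over the alternatives of 0.000153 to 0.502. The dim 228205_at changed by 0.07 (limma adjusted p = 0.502).

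TALDO1, the transaldolase that works beside transketolase, has 1 probe set, which read 12.32, 12.34 and 12.29 in control, 12.58, 12.58 and 12.61 with PIK75, and 12.42, 12.31 and 12.41 with TGX221. All PIK75 arrays lay above the rest, a 1.21-fold rise over control (0.27, SE 0.0504, 95% interval 0.16 to 0.38, limma adjusted p = 0.000968). The rise lost its call when arrays were centred on the poly-A spikes (0.19, limma adjusted p = 0.14) and turned to -0.08 on the hybridization spikes (0.334), within a range over the alternatives of 2.56e-05 to 0.334.

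Both PRPP synthetases fell on both of their probe sets. PRPS1, on the X chromosome, read 11.59, 11.60 and 11.56 in control, 11.02, 10.95 and 10.71 with PIK75, and 11.75, 11.54 and 11.56 with TGX221 on probe set 209440_at. The PIK75 values lay clear below the others, a 1.61-fold fall (-0.69, SE 0.0822, 95% interval -0.87 to -0.51, limma adjusted p = 3.26e-05). On 208447_s_at, PRPS1 read 10.64, 10.66 and 10.46 in control, 9.95, 9.67 and 8.94 with PIK75, and 10.68, 10.45 and 10.45 with TGX221. The PIK75 arrays were the lowest. This 2.1-fold fall (-1.07, SE 0.192, limma adjusted p = 0.000786) had the widest spread of any member with PIK75 (SD 0.523, n = 3), through array 5. Without that array it was -0.78 (limma adjusted p = 0.000116), and with the actin value as a covariate it was -0.54 (0.000666). The highest limma adjusted p over the alternatives was 0.00583.

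PRPS2, the second synthetase isoform, read 10.76, 10.83 and 10.96 in control, 10.48, 10.47 and 10.36 with PIK75, and 10.86, 10.89 and 10.70 with TGX221 on probe set 203401_at. It fell 1.33-fold (-0.42, SE 0.0694, 95% interval -0.57 to -0.26, limma adjusted p = 0.000462), with no overlap. On 230352_at it read 8.99, 9.11 and 9.16 in control, 8.85, 8.67 and 8.34 with PIK75, and 8.99, 9.09 and 8.95 with TGX221. The PIK75 arrays were again the lowest, a 1.38-fold fall (-0.47, SE 0.105, limma adjusted p = 0.00344). That fall did not pass with the actin value as a covariate (-0.27, limma adjusted p = 0.0829, range over the alternatives 5.62e-07 to 0.0829). PRPS1, PRPS2 and their retrogene PRPS1L1 are alike in sequence, so their probe sets may share signal.

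**Figure D2:**
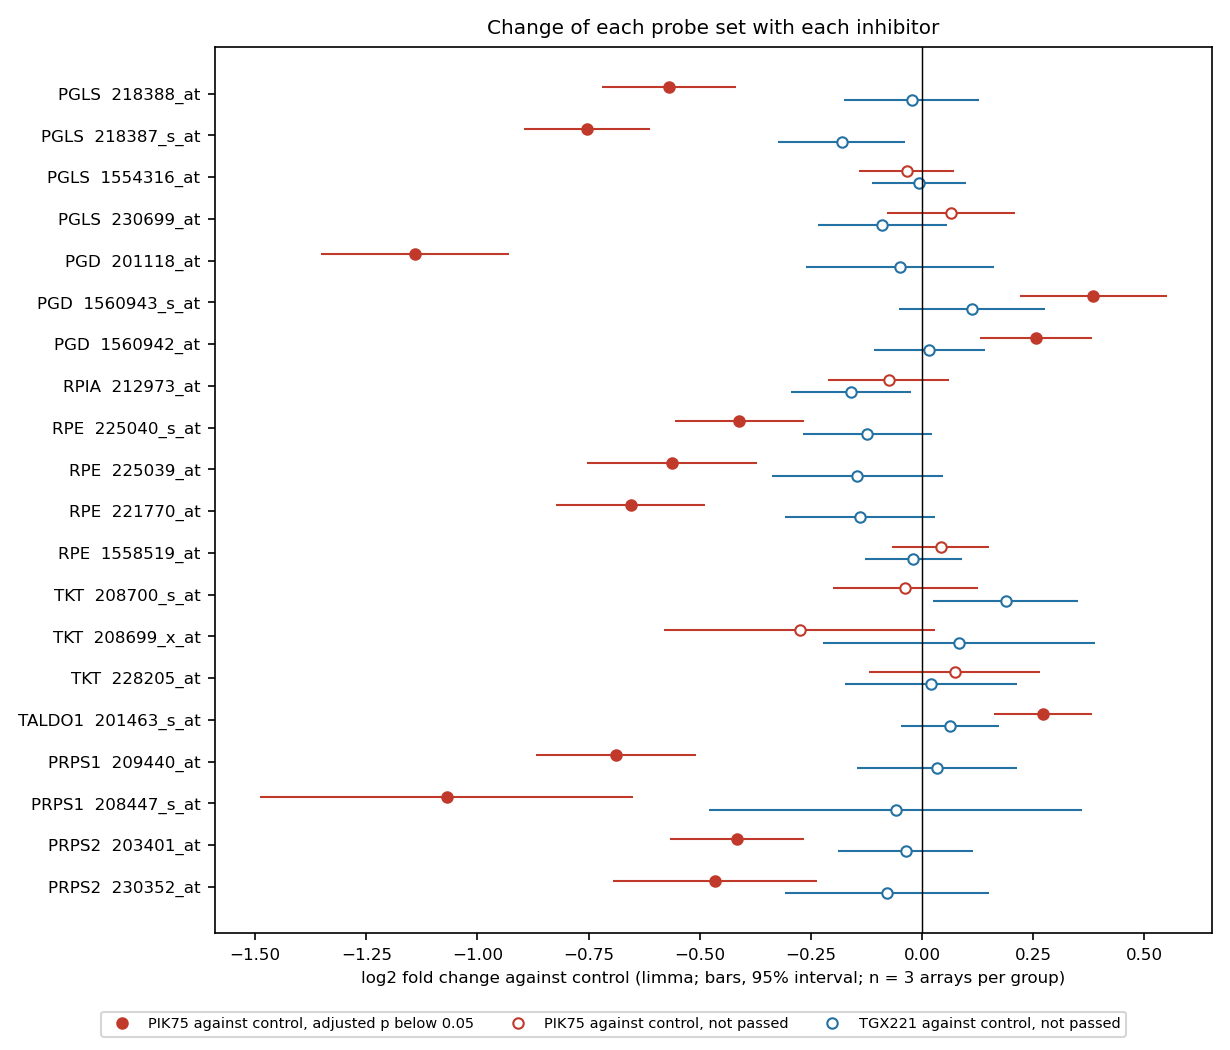
Log2 change (x axis) of each member probe set (rows, by gene) for PIK75 and for TGX221 against control, with 95% intervals from limma; filled points passed at an adjusted p below 0.05. The PIK75 changes run from -1.14 to 0.39, and those with TGX221 stay between -0.18 and 0.19.

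The size of the falls differed among the PIK75 arrays. Over the 10 member probe sets that fell, the median distance from the control mean was -0.54 on PIK75 array 1, -0.62 on array 3 and -0.72 on array 5, against -0.46, -0.51 and -0.55 over all 10846 probe sets that fell. Array 5 was the lowest of the 3 in 7 of the 10, array 3 in 3 and array 1 in 0, where the shares over all probe sets that fell were 46.8%, 34.9% and 18.3%. Array 5 also had the highest actin 3′ minus 5′ value. With that value as a covariate, 9 member probe sets were lower and 3 higher, where 8987 and 9722 of all 54613 probe sets were. The median of the members then stood -0.25 from the median of all probe sets. It was -0.43 without the covariate and -0.28 when array 5 was left out.

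**Figure D3:**
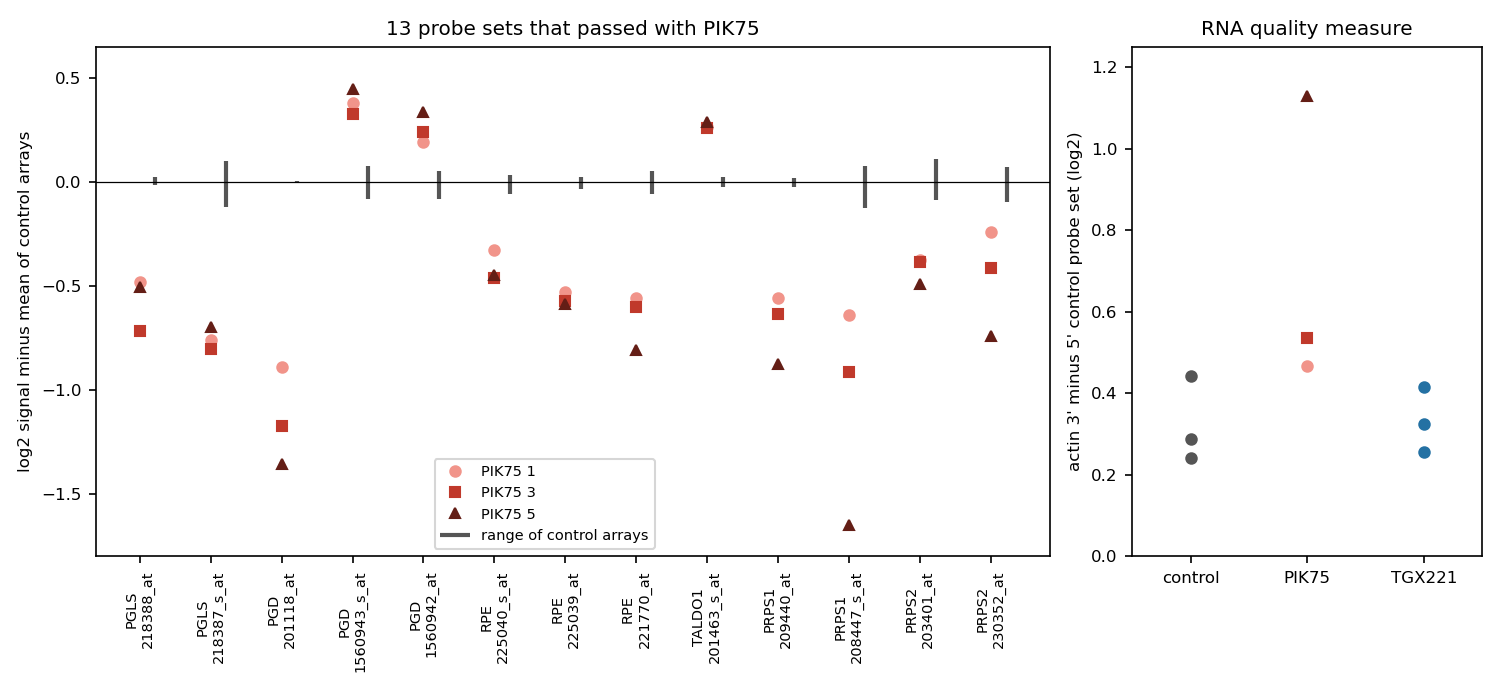
Distance of each PIK75 array from the control mean on a log2 scale (y axis) for the 13 member probe sets that passed (x axis), beside the range of the control arrays, and the actin 3′ minus 5′ value of all 9 arrays in the right panel. Array 5 is lowest in 7 of the 10 that fell, most clearly for PRPS1 208447_s_at.

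With TGX221, 0 of the 20 member probe sets were called higher and 0 lower by limma, where 0.207% of all probe sets were higher and 0.0623% lower. At an unadjusted p below 0.05 it was 3 of 20 members (15%), against 16.4% of all probe sets. All TGX221 arrays lay above control for 1 member (TKT 208700_s_at) and below for 1 (RPIA), as they did for 10.9% and 10.7% of all probe sets. The median member change was -0.03, against 0.00 over all. The 3 were TKT 208700_s_at, with a change of 0.19 (95% interval 0.03 to 0.35, limma adjusted p = 0.24), PGLS 218387_s_at with -0.18 (-0.32 to -0.04, 0.202) and RPIA with -0.16 (-0.30 to -0.02, 0.232). For PGD 201118_at the change was -0.05 with an interval of -0.26 to 0.16, for PRPS1 209440_at 0.03 (-0.15 to 0.21) and for TALDO1 0.06 (-0.05 to 0.17). The widest interval, that of PRPS1 208447_s_at, was -0.48 to 0.36, and these intervals bound the change and do not show that TGX221 left the genes as they were.

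The inhibitors were also set against each other, at doses that differ by label and with control arrays that both comparisons above share. Levels were lower with PIK75 than with TGX221 for 11 member probe sets and higher for 3, where 16.9% of all probe sets were lower and 20.3% higher by limma. The 14 were the 13 that passed against control plus TKT 208700_s_at. PGD 201118_at was 2.13-fold lower (-1.09, limma adjusted p = 3.34e-06) and PRPS1 209440_at 1.65-fold lower (-0.72, 2.62e-05). The other falls relative to TGX221 were -0.54 and -0.57 for PGLS 218388_at and 218387_s_at, -0.29, -0.42 and -0.52 for RPE 225040_s_at, 225039_at and 221770_at, -1.01 for PRPS1 208447_s_at, and -0.38 and -0.39 for PRPS2 203401_at and 230352_at. The last did not pass with the actin covariate (-0.19, limma adjusted p = 0.228, range over the alternatives 2.13e-06 to 0.228). The rises were 0.21 for TALDO1 (limma adjusted p = 0.00663) and 0.27 and 0.24 for PGD 1560943_s_at and 1560942_at (0.0141 and 0.00623), and all 3 lost their calls on the poly-A spikes (0.059, 0.12 and 0.09) and turned negative on the hybridization spikes. With the actin covariate 1560943_s_at (0.26, limma adjusted p = 0.0874) and 1560942_at (0.20, 0.0733) did not pass, nor did 1560943_s_at without TGX221 array 3 (0.19, 0.053), within ranges over the alternatives of 0.00692 to 0.895 and 0.0046 to 0.58. PGLS 230699_at, not called in the main fit (0.15, limma adjusted p = 0.0881), was called higher with the actin covariate (0.25, 0.0329). Its range over the alternatives was 0.0329 to 0.986. TKT 208700_s_at differed by -0.23 (95% interval -0.39 to -0.06, limma adjusted p = 0.0326), but this call was lost under cyclic loess (-0.11, 0.303), with the actin covariate (-0.13, 0.344), with array weights (-0.18, 0.0688), as the mean of its probe sets (-0.18, 0.0565), and when PIK75 array 1 (0.0861) or 5 (0.114) or TGX221 array 2 (0.0712), 3 (0.0827) or 5 (0.0694) was left out, within a range over the alternatives of 1.45e-05 to 0.344.

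Genes that feed the pathway or use its products were read on the brightest probe set of each gene, for PIK75 against control, where 24.7% of all genes were lower and 33.3% higher, with a median of 0.09. Of 12 measured other pentose phosphate and ribose genes, 3 were higher and 4 lower, with a median of 0.10. PGM1, which links glycogen to glucose 6-phosphate, fell 3.51-fold (-1.81, SE 0.0847, limma adjusted p = 1.91e-08). PGM2, which makes ribose 5-phosphate from ribose 1-phosphate, fell 2.04-fold (-1.03), and PRPSAP2, a regulatory partner of the PRPP synthetases, fell 1.78-fold (-0.83). On the hybridization spikes this list had 0 higher and 8 lower. The 5 lists below had 0 higher on those spikes, with 9 of 10 purine, 5 of 5 pyrimidine, 5 of 6 salvage, 7 of 9 NADPH and 7 of 8 hexose phosphate genes lower. Most probe sets were lower under that scaling: 37576 of all 54613, with 847 higher. PGM1 also had the smallest p of these genes with TGX221, at a change of -0.36 that did not pass (limma adjusted p = 0.0821).

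In the nucleotide pathways that use PRPP, more genes fell than rose. In de novo purine synthesis 7 of 10 genes were lower and 1 higher (median -0.24), led by PFAS, the formylglycinamidine synthase, at -1.17, ADSL, the adenylosuccinate lyase, at -0.87, and GMPS, the GMP synthetase, at -0.46. GART and PPAT, lower on their brightest probe sets (-0.25 and -0.42), had probe sets that moved apart. Dimmer GART probe sets changed by -1.05 and 1.65 (limma adjusted p = 6.95e-07 and 6.0e-08), and its remaining ones did not pass. Dimmer PPAT probe sets changed by -0.44 and 0.32 (0.00036 and 0.00316). On the hybridization spikes the GART rise was 1.30 and the PPAT rise turned to -0.03. Under cyclic loess 4 of the 10 purine genes were lower and 1 higher, where 11908 and 8709 of all 54613 probe sets were. In pyrimidine synthesis 3 of 5 were lower and 0 higher (median -0.34): CTPS1 and CTPS2, which make CTP, at -1.32 and -1.16, and UMPS, which makes UMP, at -0.34. Of 6 salvage enzymes that use PRPP, 2 were lower and 1 higher (median -0.06). With array medians 3 were lower and 0 higher, where 12179 and 10317 of all 54613 probe sets were. HPRT1, which recovers hypoxanthine and guanine, changed by -0.82 and NAMPT, of NAD salvage, by -0.55. NAPRT, of NAD synthesis from nicotinic acid, rose by 0.27 on its brightest probe set (limma adjusted p = 0.0238). That rise did not pass without PIK75 array 5 (0.20, 0.0915) or on the hybridization spikes (-0.08, 0.413). The dimmer NAPRT probe set rose by 0.42 (limma adjusted p = 0.00243) and still passed without PIK75 array 5 (0.36, 0.0109). It did not pass on the hybridization spikes (0.07, 0.487).

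Other NADPH sources were lower in 4 of 9 and higher in 1 (median -0.12, but 0.01 under cyclic loess). They included IDH2, the mitochondrial isocitrate dehydrogenase, at -0.87, and the malic enzymes ME3 and ME1 at -0.38 and -0.27. Around the hexose phosphate branch point 5 of 8 were lower and 1 higher (median -0.31), with the phosphofructokinases PFKM at -0.84 and PFKP at -0.65 and TIGAR, a fructose bisphosphatase that favours the pentose phosphate pathway, at -0.40. Every gene named here with a change passed in limma. With TGX221, 0 genes of any of the 6 lists were called by limma, where 0.324% of all genes were. At an unadjusted p below 0.05 it was 6 of 12 of the other pentose phosphate and ribose genes, 0 of 10 for purines, 0 of 5 for pyrimidines, 2 of 6 salvage enzymes, 1 of 9 NADPH sources and 2 of 8 hexose phosphate genes, against 17.8% of all genes.

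**Figure D4:**
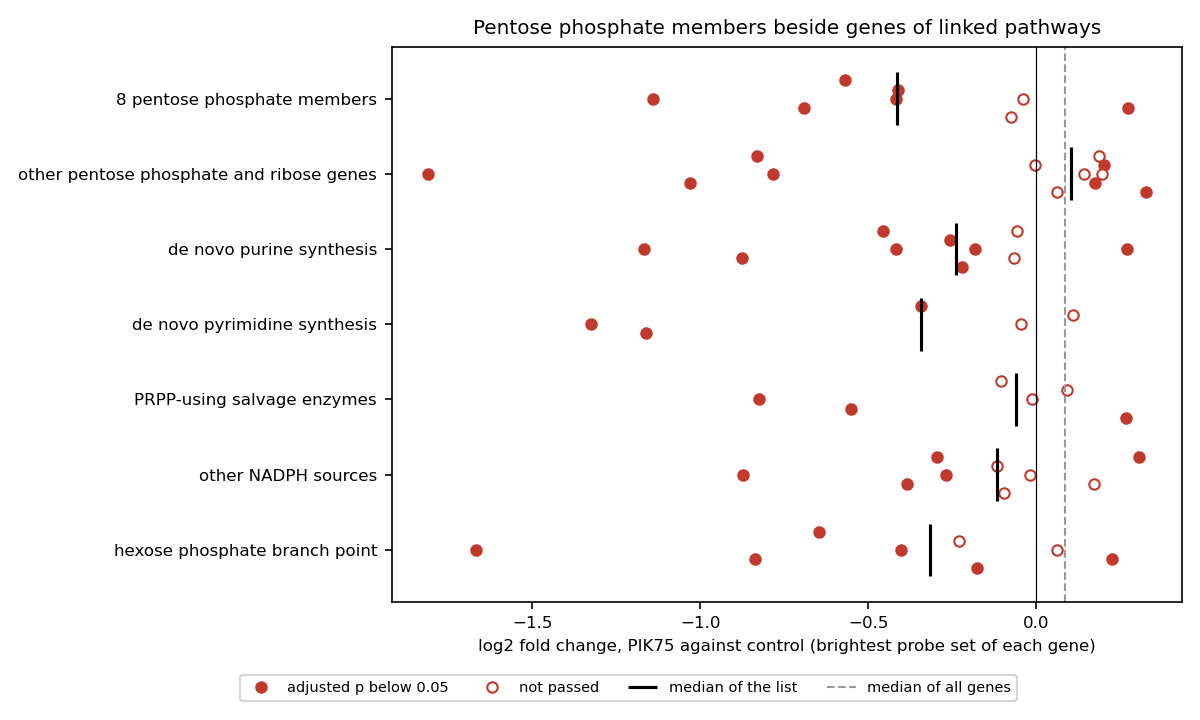
Log2 change with PIK75 against control (x axis) of the measured genes of 6 linked lists and of the members, brightest probe set per gene; filled points passed at a limma adjusted p below 0.05, short lines are list medians and the dashed line is the median of all genes, 0.09. PGM1 stands furthest from 0 at -1.81.

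Profiles most like each member were sought among 17096 genes with a mean of at least 6, as the smallest root mean square difference between profiles centred on their mean over all 9 arrays. The closest was CHMP6, an ESCRT-III subunit, for TALDO1, at 0.019. For PGD it was TRA2A, a splicing regulator, at 0.048, for PRPS1 TPGS2 at 0.039, for PRPS2 CHST2 at 0.039 and for PGLS FAM98A at 0.037. For RPE it was JAK1, a cytokine receptor kinase, at 0.034, for RPIA PLEKHB2 at 0.033 and for TKT RND1 at 0.039.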

How the data were processed

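Gene expression was measured on 9 Affymetrix arrays of H69 cells, 3 each for control, PIK75 and TGX221. The deposited values are on a log2 scale and are RMA values, per the submitters' processing notes (version not stated there). They were used as deposited, and raw files were not used here. Symbols came from the platform annotation: 41091 probe sets carry 1 symbol, 1801 several and 11721 none, and 62 are Affymetrix controls, which were left out of the tests. Array number limits the precision.

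All 54613 other probe sets were fitted in limma 3.58.1 (R 4.3.3) with 3 group means, a residual df of 6 and a prior df of 5.63, and p-values were adjusted by the method of Benjamini and Hochberg over all of them, with a threshold of 0.05. Exact tests of 3 arrays against 3 cannot go below p = 0.1 and were not used. The scripts were tested on simulated data. Every member probe set is reported. Genes of linked lists are named by the 3 smallest p with PIK75 and at most 1 with TGX221, on the brightest single-symbol probe set. GART and PPAT are named besides, because their probe sets moved apart. Members and lists were chosen with earlier results of these data known. Alternatives were array-median, poly-A spike (24 probe sets) and hybridization spike (18 probe sets) centring, cyclic loess, the probe sets above median brightness, 1 probe set or the mean per gene, 2 groups only, array weights, a robust trended prior, a block for replicate number, stricter thresholds and each array left out. The actin covariate was added after seeing the data. Promoters came from RefSeq (GRCh38.p14).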

Additional observations from a re-analysis of the deposited data

How the results depend on the processing

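With PIK75 against control, 10 member probe sets were lower and 3 higher, of 27400 called in all. Centring on the poly-A spikes left 1 higher of 16203 called in all. There the SEs of unlike probe sets drew together. For PIK75 against TGX221 they were 0.0997 for PGLS 218388_at and 0.0975 for 1554316_at, against 0.069 and 0.0485 in the main fit. Very small p-values on the poly-A spikes therefore rest little on a probe set's own spread, and the larger SEs also weaken calls of small changes. Centring on the hybridization spikes left 0 higher and 17 lower, where 847 and 37576 of all 54613 probe sets were. The brightest probe set per gene and the mean per gene each gave 1 higher and 5 lower, of 11947 and 12369 called, from fewer features. A minimum of 1.5-fold gave 0 higher and 5 lower, of 5139, and an adjusted p below 0.01 gave 18121 in all. For PIK75 against TGX221 (3 higher, 11 lower, 20304 in all), both spike centrings gave 0 higher, with 34963 in all on the hybridization spikes. The brightest probe set gave 1 higher and 6 lower of 9379, the mean 1 higher and 5 lower of 9608, 1.5-fold 0 higher and 3 lower of 4294, and the stricter p 13106 in all. With TGX221 against control 0 member probe sets were called under any of the alternatives run. The 147 calls over all probe sets became 12 with array medians, 927 and 886 on the poly-A and hybridization spikes, 84 with cyclic loess, 270 above median brightness, 239 and 30 by brightest probe set and by mean, 0 with 2 groups only, 2115 with array weights, 0 at the stricter p, 4 at 1.5-fold and 1 with the actin covariate. They ranged from 0 to 959 with 1 array left out. The hybridization spikes, 0.35 higher with PIK75, shifted the median of all probe sets from 0.08 to -0.27 and turned these signs, against control: PGLS 230699_at -0.29, PGD 1560942_at -0.10, RPE 1558519_at -0.31, TKT 228205_at -0.28 and TALDO1 (201463_s_at) -0.079. Against TGX221 they turned PGLS 230699_at to -0.13, PGD 1560943_s_at to -0.014, PGD 1560942_at to -0.047, RPIA to -0.20, RPE 1558519_at to -0.22, TKT 228205_at to -0.23 and TALDO1 to -0.078. The cause of the other shifts was not tested. The share of lower among all PIK75 calls was 39.6%, and 54.1%, 69.6%, 97.8%, 57.8% and 48% with array medians, poly-A spikes, hybridization spikes, cyclic loess and above median brightness.

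With the replicate number as a block, 10 member probe sets were lower and 3 higher with PIK75 (25970 called in all), 0 were called with TGX221 (0 in all), and 11 were lower and 3 higher for PIK75 against TGX221 (16344 in all), but TKT 208700_s_at did not pass there (limma adjusted p = 0.0558). The shared numbers carry no stated meaning. Same-numbered control and PIK75 arrays had correlations of deviations of -0.07, 0.09 and -0.00088, control and TGX221 arrays 0.053 and 0.0053, and PIK75 and TGX221 arrays 0.07 and 0.22, and not every array correlated best with its own number, so the numbers were not taken to pair the arrays.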

Other observations

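Exactly equal values on 2 or more arrays occurred for 7 of the 20 member probe sets (35%) and for 45.5% of all probe sets. PGLS 1554316_at carried the identical value, 7.73, on all 3 control arrays, so its control SD was 0.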
